A study of Mus musculus with 9 samples.

Results

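The MHC class II presentation genes are the genes whose proteins build class II molecules and load them with peptide. The 10 members were chosen by symbol: H2-Aa, H2-Ab1 and H2-Eb1, which encode class II chains, Cd74, which encodes the invariant chain, H2-DMa, H2-DMb1, H2-DMb2 and H2-Oa, which encode factors that govern peptide loading, Ctss, which encodes cathepsin S, and Ciita, which encodes the class II transactivator. Each member matched 1 of the 55655 rows of the expression tables by its Ensembl identifier. The study asked how photobiomodulation (PBM), irradiation with low-level laser light, alters macrophages activated by LPS and IFN-γ. All groups were bone marrow-derived macrophages (BMDMs) from the femur and tibia of wild type C57BL/6 mice aged 6 to 8 weeks, grown for 7 days with 10 ng/mL of the growth factor M-CSF. The M0 group received neither LPS, IFN-γ nor PBM. The M1 group received LPS and IFN-γ for 12 hours in the dark box without light, and the M1 + PBM group received the same LPS and IFN-γ together with irradiation. Each group held 3 libraries. The study describes its experiments as independent repeats, but neither the labels nor the methods say whether the libraries of a group came from separate animals, so a p-value here measures the spread between these libraries and may not cover that between animals.

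Class II molecules carry peptides from the endosome to the cell surface, where CD4+ T cells read them. The invariant chain Cd74 guides new class II dimers to the endosome and blocks their groove, cathepsin S trims it there, and H2-DM removes the remaining fragment so that peptide can bind, a step that H2-DO, of which H2-Oa is 1 chain, restrains. In macrophages IFN-γ is the classical inducer of these genes. Its signal runs through Jak1, Jak2 and Irf1, among others, to Ciita, a coactivator that binds no DNA itself and is held at class II promoters by RFX and NF-Y, proteins that bind the X box and the Y box. C57BL/6 mice make no E alpha chain, so the E beta chain from H2-Eb1 lacks its partner in this strain.

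These promoters were searched for the cores of the X box and the Y box, the elements that RFX and NF-Y bind. RefSeq promoter entries (GRCm38.p6, 250 bases before to 50 after each start) were used for 7 members, with none for H2-Ab1, Cd74 and Ciita. The Y box core GATTGG was found on either strand in 6 of the 7 and in 16.1% of 32851 promoters, and the X box core AGNNACNGA was found in 3 of the 7 (H2-Eb1, H2-DMb1 and H2-Oa) and in 17.7% of promoters. An X box core followed by a Y box core within 40 bases on the same strand, a spacing chosen after the sequences were seen, was present in 2 of the 7 and in 0.103% of promoters. Each stretch below is printed 5′ to 3′ on the gene's strand with 60 bases before the Y box core and 20 after it. Capitals mark the Y box core and, where both cores lie in that order, the X box core as well.
H2-Aa (chr17:34287847-34287932, minus strand): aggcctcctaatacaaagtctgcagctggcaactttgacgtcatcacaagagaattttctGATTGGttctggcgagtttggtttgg
H2-Eb1 (chr17:34305747-34305832, plus strand): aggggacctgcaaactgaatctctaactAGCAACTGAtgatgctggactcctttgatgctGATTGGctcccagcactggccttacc
H2-DMb1 (chr17:34153069-34153154, plus strand): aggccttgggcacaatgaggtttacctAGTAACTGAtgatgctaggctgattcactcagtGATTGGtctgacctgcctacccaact
H2-DMb2 (chr17:34145098-34145183, plus strand): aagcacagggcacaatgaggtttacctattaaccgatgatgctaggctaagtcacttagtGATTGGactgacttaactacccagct
H2-Oa (chr17:34092275-34092360, plus strand): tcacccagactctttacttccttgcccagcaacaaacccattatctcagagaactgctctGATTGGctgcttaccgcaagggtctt
The gap between the cores was 23 bases in H2-Eb1 and 24 in H2-DMb1. The Y box core lay 49 bases before the start in H2-Aa, 60 in H2-Eb1, 62 in H2-DMb1, 91 in H2-DMb2 and 44 in H2-Oa. In H2-DMa, whose stretch is not printed, it lay farther off, 199 bases before the start. The only GAS element (TTCNNNGAA, the IFN-γ activated site) among the 7 was in H2-DMb2, and 8.3% of all promoters held one. No motif was found in the window of Ctss, the gene for a protease. A match describes letters in a window and was not tested as a binding site. A fixed string can miss a variant of an element, so a window without a match may still hold that element.

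Expression was given as FPKM, fragments scaled by transcript length and library depth, a level per length that allows genes to be set beside each other. Depth estimated from the steps between low FPKM values was 30560000 to 42080000 fragments over the 9 libraries. The estimate is rough, since only 23.8% to 25.5% of low values fell near a whole number of steps. All 7 macrophage markers were expressed in the libraries, among them Adgre1 at 299.2 to 864.4 FPKM. The inflammatory genes Nos2 and Cd86, used as a check of the labels, were higher in every M1 and M1 + PBM library than in every M0 library. M0 replicate 3 stood apart, with summed stromal marker FPKM of 186.7 against 5.35 and 6.76 in the other M0 libraries, and with more Irf1 (25.6 against 10.8 and 10.9 FPKM). M0 values come from a separate table, which may have been normalized on its own, so levels set across M0 and the other groups are described without a test.

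Cathepsin S and the invariant chain dominated the class II genes in every group. Ctss was first, at an FPKM of 1994 ± 389 in M0, 1721 ± 204 in M1 and 1792 ± 68.5 in M1 + PBM (mean ± SD of 3 libraries). Cd74 was second, at 130.4 ± 43.4, 221 ± 62.2 and 188.8 ± 44.2. The libraries of Ctss, Cd74 and the next gene in rank did not overlap with each other in any group. Below them the order depended on the group. In M0 the libraries of H2-DMb1, H2-Ab1, H2-Aa, H2-Eb1 and H2-DMa overlapped between neighbours, as did H2-DMa with Ciita and Ciita with H2-DMb2. In M1 H2-Ab1 followed Cd74, above and apart from H2-DMb1, whose libraries overlapped with those of H2-Aa, and H2-Aa overlapped with H2-Eb1. H2-DMa, Ciita, H2-DMb2 and H2-Oa closed the order in every group. H2-Oa was last and was the only member whose mean FPKM was under 1 in all groups.

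**Figure D1:**
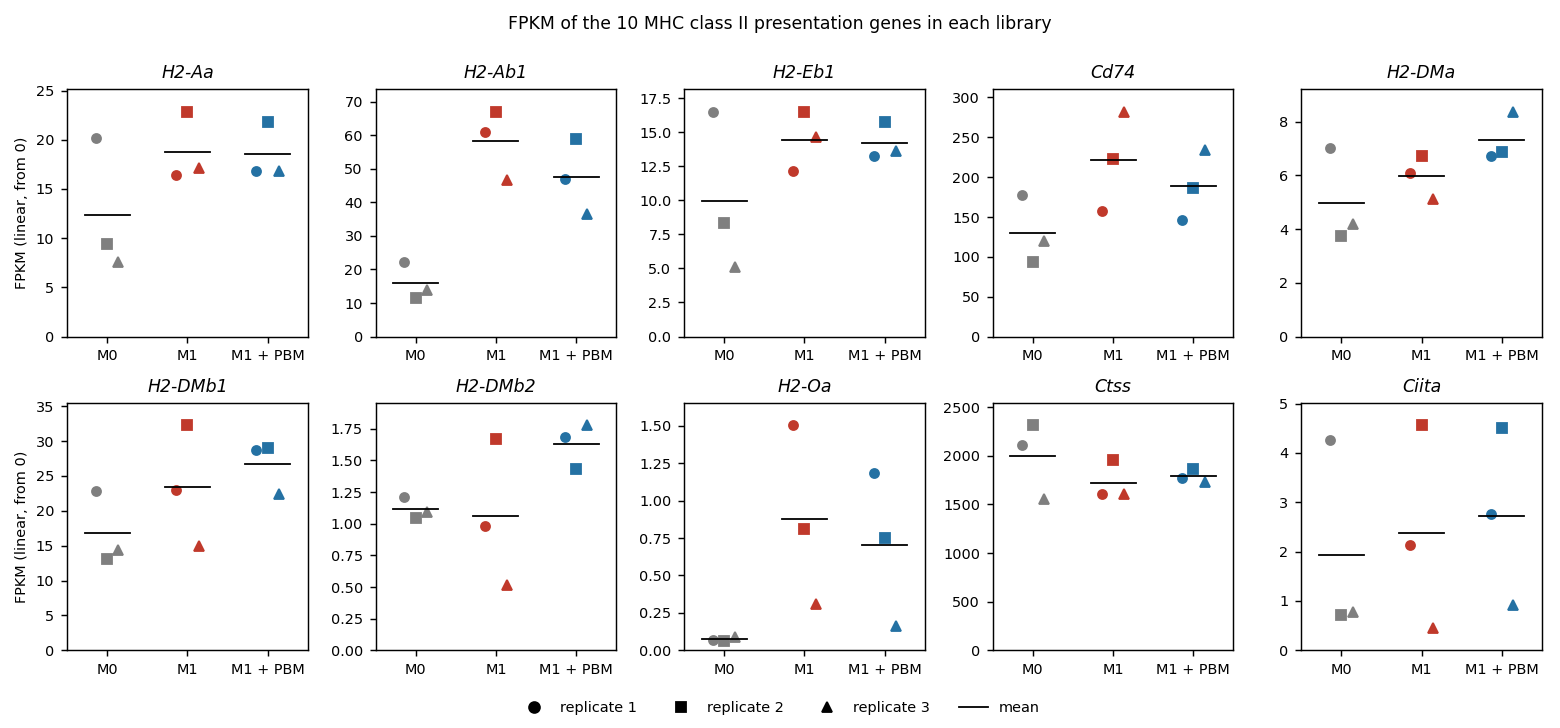
FPKM (linear axes from 0, a scale for each gene) of the 10 members in the 9 libraries, with 1 point per library, its shape giving the replicate number, and a bar at the group mean. H2-Ab1 and H2-Oa are the members whose M1 libraries all lie above the M0 libraries, while the points of M1 and M1 + PBM overlap for all 10.

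H2-Ab1 had the largest difference between M0 and M1 on the log2(FPKM + 1) scale, on which the change of a gene as low as H2-Oa is understated. The A beta chain gene H2-Ab1 (ENSMUSG00000073421) had an FPKM of 22.2, 11.4 and 14.0 in M0 replicates 1 to 3, of 60.9, 67.1 and 46.7 in M1, and of 47.1, 59.0 and 36.5 in M1 + PBM. Every activated library lay above every M0 library, and the mean FPKM was 3.68 times that of M0 in M1 and 3.0 times in M1 + PBM. The log2 difference of FPKM + 1 from M0 was 1.85 for M1 and 1.55 for M1 + PBM. Both differences share the M0 libraries. In bulk RNA, more expressing cells and more RNA per cell cannot be told apart.

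In FPKM as given, its partner in the A heterodimer did not separate in this way. The FPKM of H2-Aa (ENSMUSG00000036594), the A alpha chain gene, was 20.2, 9.39 and 7.58 in M0, 16.4, 22.9 and 17.1 in M1, and 16.8, 21.8 and 16.9 in M1 + PBM. M0 replicate 1 lay within the range of both activated groups and the other M0 libraries lay below it. The FPKM of H2-Eb1 (ENSMUSG00000060586), the E beta chain gene, was 16.5, 8.32 and 5.09 in M0, 12.2, 16.5 and 14.6 in M1, and 13.3, 15.7 and 13.6 in M1 + PBM, with M0 replicate 1 level with the highest activated library. Cd74 (ENSMUSG00000024610) was at 178, 93.0 and 120.3 in M0, at 158, 222.7 and 282.3 in M1, and at 145.9, 186.5 and 234.1 in M1 + PBM. For these 3 genes the log2 difference of M1 from M0 lay between 0.62 and 0.77 and that of M1 + PBM between 0.56 and 0.65. Their overlap with M0 depended on the scaling. With median-of-ratios scaling over all 9 libraries, every activated library of these 3 genes lay above every M0 library. With upper-quartile scaling H2-Aa and H2-Eb1 still overlapped with M0.

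The ratio between chain genes within a library does not depend on the scaling of that library. H2-Ab1 over H2-Aa was 1.1, 1.21 and 1.84 in M0, 3.71, 2.93 and 2.73 in M1, and 2.80, 2.70 and 2.17 in M1 + PBM. Every activated library therefore had a higher ratio than every M0 library, M0 replicate 1 included. H2-Eb1 over H2-Aa overlapped between all groups, at 0.672 to 0.886 in M0, 0.722 to 0.854 in M1 and 0.720 to 0.809 in M1 + PBM. Cd74 over H2-Ab1 was 8.03 to 8.62 in M0, 2.60 to 6.05 in M1 and 3.10 to 6.41 in M1 + PBM, with no overlap of M0 with either. Between M1 and M1 + PBM the ratio of H2-Ab1 to H2-Aa overlapped, and a two-sided exact permutation test gave p = 0.2, where 3 libraries against 3 cannot go below 0.1.

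**Figure D2:**
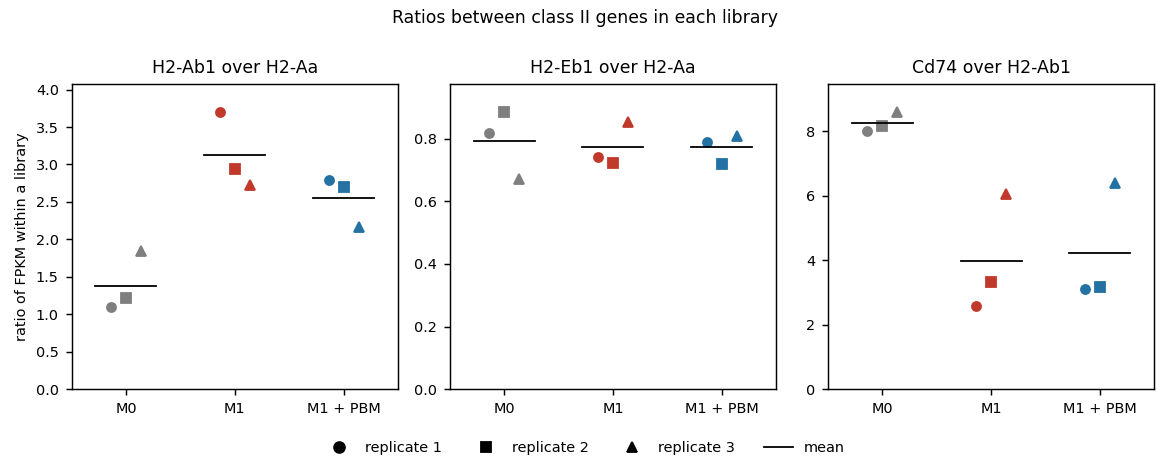
Ratios of FPKM within each library (linear axes from 0) for H2-Ab1 over H2-Aa, H2-Eb1 over H2-Aa and Cd74 over H2-Ab1, with 1 point per library and a bar at the group mean. The first ratio is 1.1 to 1.84 in M0 and 2.17 to 3.71 in the activated libraries, the second overlaps between all groups, and the third is above 8 in M0 alone.

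The peptide loading genes lay at lower levels. H2-DMa (ENSMUSG00000037649), the alpha chain of the peptide exchanger H2-DM, had an FPKM of 7.02, 3.74 and 4.18 in M0, 6.09, 6.72 and 5.13 in M1, and 6.71, 6.87 and 8.38 in M1 + PBM. M0 overlapped with both activated groups through M0 replicate 1, and M1 overlapped with M1 + PBM. H2-DMb1 (ENSMUSG00000079547), a beta chain of H2-DM, was at 22.9, 13.1 and 14.4 in M0, 22.9, 32.3 and 15 in M1, and 28.7, 29.0 and 22.4 in M1 + PBM. H2-DMb2 (ENSMUSG00000037548), its near copy, was at 1.21, 1.05 and 1.09 in M0, 0.984, 1.67 and 0.518 in M1, and 1.69, 1.43 and 1.78 in M1 + PBM. All M1 + PBM libraries of H2-DMb2 were above all M0 libraries, whereas the M1 libraries spanned the M0 range. The transcripts of H2-DMb1 and H2-DMb2 were 96.0% identical over 1045 aligned bases, so fragments may have been split between them and each value is uncertain.

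H2-Oa (ENSMUSG00000024334), the alpha chain of the H2-DM inhibitor H2-DO, was near 0 in M0, at an FPKM of 0.0685, 0.0605 and 0.0901. It was 1.5, 0.814 and 0.308 in M1 and 1.19, 0.753 and 0.165 in M1 + PBM, so every activated library was above every M0 library. By the rough depth estimate and the longest annotated transcript, which gives upper estimates, about 2.8 to 79.9 fragments stood behind these values, and no fold against M0 is given. H2-Ob, the gene of the other H2-DO chain, was under an FPKM of 1 in every library, at 0.00547 to 0.0647 in M0, 0.113 to 0.225 in M1 and 0.0825 to 0.133 in M1 + PBM. H2-Eb2, a further E beta gene, did not exceed 0.0562, and H2-Ea-ps, the E alpha locus of this strain, was listed at 0 in all 9 libraries.

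Ctss (ENSMUSG00000038642) overlapped between all groups, at an FPKM of 2109.9, 2313 and 1560.3 in M0, 1604.1, 1956 and 1603.8 in M1, and 1772, 1868 and 1736 in M1 + PBM. It was the steadiest member within the activated groups, with a highest library 1.22 times the lowest in M1 and 1.08 times in M1 + PBM. Ciita (ENSMUSG00000022504) was the least steady of the tested members. Its FPKM was 4.27, 0.726 and 0.780 in M0, 2.13, 4.56 and 0.448 in M1, and 2.76, 4.50 and 0.911 in M1 + PBM. The highest library was 5.88 times the lowest in M0, 10.2 times in M1 and 4.94 times in M1 + PBM, and the groups overlapped throughout. M0 replicate 1, the M0 library highest in Ciita, was also the highest M0 library of H2-Aa, H2-Ab1, H2-Eb1, Cd74, H2-DMa, H2-DMb1 and H2-DMb2. M1 replicate 3, the lowest in Ciita, was at the same time the highest M1 library of Cd74.

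In the activated groups, but not in M0, the libraries of Ciita stood in the same order as those of Itgax. Itgax is the gene of the integrin CD11c, which dendritic cells and some macrophages carry. Itgax FPKM was 89.4, 70.3 and 19.8 in M0, 12.1, 34.2 and 4.18 in M1, and 13.2, 25.3 and 7.08 in M1 + PBM. In both activated groups replicate 2 was the highest and replicate 3 the lowest for both genes, while in M0 replicate 2 was high in Itgax and low in Ciita. The order in the activated groups was not particular to Itgax. The macrophage marker Cd68 and the members H2-Ab1, H2-DMb1 and Ctss held it too, while the macrophage marker Adgre1 did not. Itgax was the only 1 of 8 dendritic cell markers to reach an FPKM of 1, Flt3 was listed at 0 in all libraries, and Zbtb46 did not exceed 0.260. The summed dendritic cell markers were 20.2 to 89.8 in M0, 5.42 to 34.9 in M1 and 8.07 to 25.7 in M1 + PBM. Of 6 B cell markers Blnk alone reached 1, with Ms4a1 at no more than 0.0588, and their sum was 16.0 to 28.6, 14.1 to 25.7 and 16.1 to 24.5 in the 3 groups. Of 5 T cell markers only Cd4 reached 1, and their sum did not exceed 5.99. The part of Itgax-carrying cells in the spread of Ciita was not tested.

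**Figure D3:**
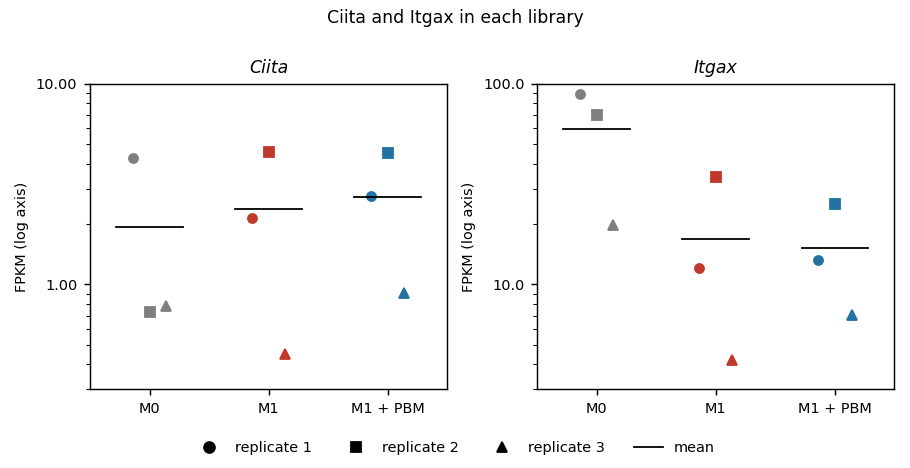
FPKM of Ciita and of Itgax (log axes) in the 9 libraries, with 1 point per library, its shape giving the replicate number, and a bar at the group mean. Replicate 2 is highest and replicate 3 lowest for both genes in M1 and in M1 + PBM, and M0 replicate 2 is low in Ciita (0.726) and high in Itgax (70.3).

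Counted over the members, M1 and M0 were apart for few genes. H2-Oa was not among the 13915 rows that reached an FPKM of 1 in 3 or more of the 9 libraries, and the counts that follow are over the other 9 members. All M1 libraries were above all M0 libraries in 1 of the 9 (H2-Ab1), against 15.6% of these rows, and below in 0, against 50.6%. For M1 + PBM the counts were 2 above (H2-Ab1 and H2-DMb2), against 15.9%, and 0 below, against 46.2%. The median log2 difference of all 10 members was 0.52 for M1 and 0.58 for M1 + PBM, where the median over all rows kept was -0.34 and -0.27. Median-of-ratios scaling over both tables moved these all-row medians to -0.007 and -0.009 and the members' medians to 0.84 and 0.85, and it raised the counts above M0 to 5 and 7 of 9, against 28.9% and 27.4% of rows. Without M0 replicate 1 the counts were 6 (against 16.9%) and 8 (against 17.5%), so most of the overlap involved this library, and without M0 replicate 3 they stayed at 1 (18.7%) and 2 (19.2%). The counts under another scaling or without a library were added after the values were seen.

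Other genes of the pathway were counted by function against the same shares, 15.6% of rows higher and 50.6% lower in every M1 library than in every M0 library. Of 7 genes of the IFN-γ signal, 6 were higher and 1, the receptor gene Ifngr1, was lower. Jak2 was 65.8 to 82.7 FPKM in M1 against 5.19 to 9.75 in M0, and Irf1 was 32.0 to 65.5 against 10.8 to 25.6. Of 7 promoter factors, 5 were lower (Rfxap, Rfxank, Nfya, Nfyb and Nfyc) and 1, Rfx5, was higher, at 2.59 to 3.83 against 1.37 to 2.52. Of 7 genes of endosomal proteolysis, 4 were lower (Ifi30, Ctsb, Ctsd and Cst3) and 1, Sppl2a, the protease that removes the last invariant chain fragment from the membrane, was higher. The counts of these last 2 lists were not far from the shares over all rows. The thiol reductase gene Ifi30 was at a mean FPKM of 61.5 ± 14.4 in M0 and 17.8 ± 6.36 in M1. March1, whose product ubiquitinates surface class II for turnover, was at 6.07 ± 1.89 and 37.2 ± 4.66, with no overlap. In M1 + PBM, against 15.9% of rows higher and 46.2% lower, the IFN-γ signal counts were again 6 and 1, the promoter factor counts were 0 higher and 2 lower, and those of endosomal proteolysis were 1 higher and 3 lower.

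**Figure D4:**
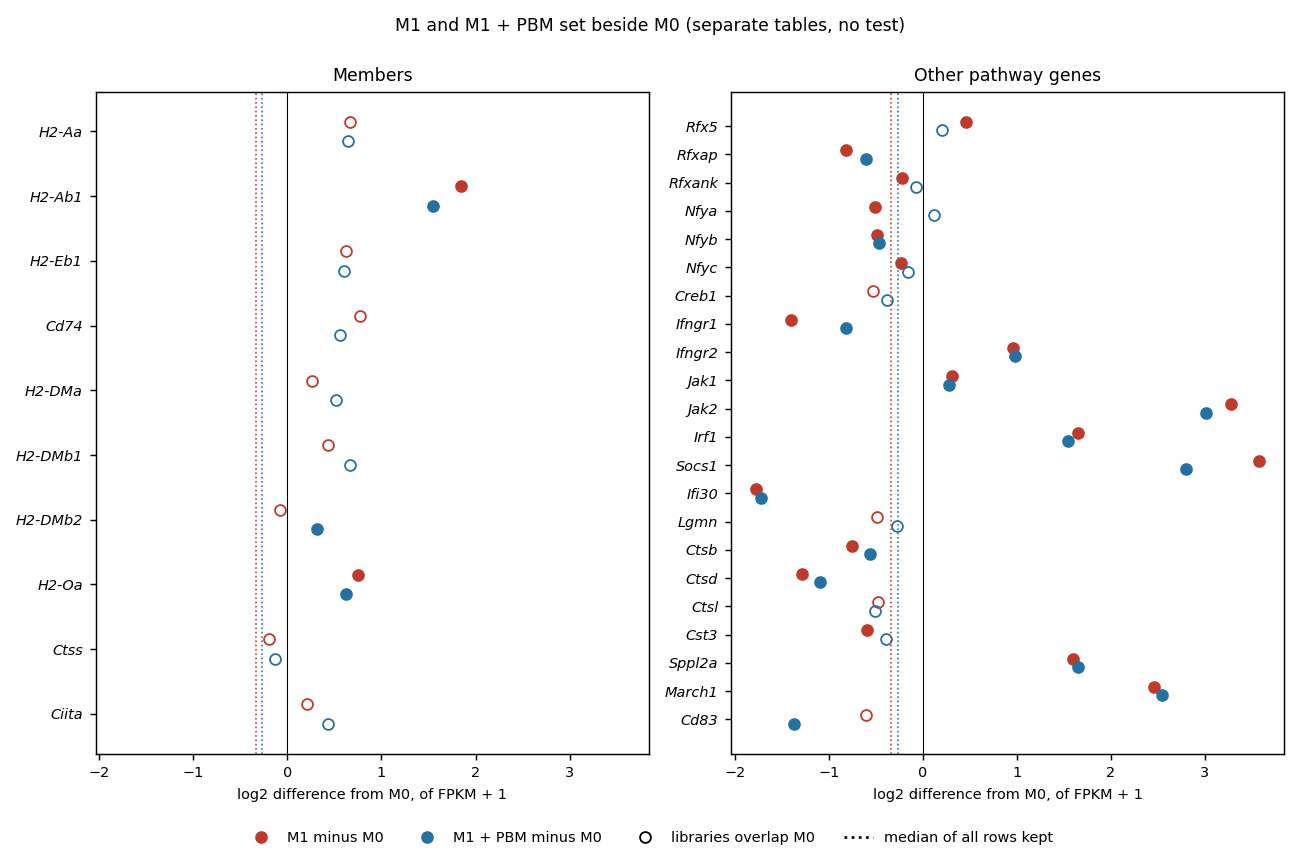
Log2 difference of FPKM + 1 from M0 for M1 (red) and M1 + PBM (blue), for the 10 members (left) and pathway genes with enough signal (right), with open points where libraries overlap those of M0 and dotted lines at the median of all rows kept. H2-Ab1 lies at 1.85 and 1.55, while the other members lie between -0.20 and 0.77.

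With PBM no member passed the test against M1. The contrast of M1 + PBM with M1 was fitted by limma on log2(FPKM + 1) over the 12238 rows that reached an FPKM of 1 in 3 or more of the 6 libraries, as 9 members did and H2-Oa did not. Of these 9, 5 had a higher and 4 a lower estimate, and 0 reached an unadjusted p of 0.05, against 2.99% of rows higher and 1.45% lower. At a Benjamini-Hochberg adjusted p under 0.05 limma called 0 members and 1 row in all (0.00817%), and with an unadjusted p of 0.05 or less and a log2 fold change of 1 or more in size it called 0 members, against 0.261% of rows. The libraries of M1 + PBM and M1 overlapped for all 10 members, where 8.51% of rows were higher and 2.52% lower without overlap. The median log2 fold change was 0.06 for the 9 tested members and 0.06 for all rows.

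The intervals show which changes these libraries could not separate from none. The log2 fold change of H2-Aa was -0.017 with a 95% interval from -0.42 to 0.38, and that of H2-Eb1 was -0.015 with an interval from -0.34 to 0.31. Ctss was at 0.06, with an interval from -0.24 to 0.37. The genes of H2-DM had positive estimates, 0.25 for H2-DMa (-0.06 to 0.57), 0.24 for H2-DMb1 (-0.41 to 0.89) and 0.39 for H2-DMb2 (-0.11 to 0.89). The loading gene H2-Oa, in a fit without the minimum FPKM, was at -0.14 (-0.95 to 0.67). Ciita was at 0.22 with the widest interval of the tested members, from -1.15 to 1.59. The smallest adjusted p among the members, 0.90 by limma, was shared by H2-Ab1, H2-DMa and H2-DMb2.

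The 2 genes with the lowest estimates, H2-Ab1 and Cd74, were those that changed their side of the threshold with the replicate number as a block. The pairing by number was inferred from the values of these same libraries, and the p-values with the block depend on it. H2-Ab1 was at -0.30 ± 0.21 (SE) without the block (unadjusted p = 0.208, limma) and at -0.30 ± 0.08 with it (unadjusted p = 0.0152, adjusted p = 0.577, limma). Its differences in the same-numbered pairs 1 to 3 were -0.36, -0.18 and -0.35. Cd74 was at -0.21 ± 0.26 without the block (unadjusted p = 0.443, limma) and at -0.21 ± 0.08 with it (unadjusted p = 0.0425, adjusted p = 0.577, limma), with pair differences of -0.12, -0.26 and -0.27. The exact permutation test without pairs, two-sided, gave p = 0.3 for H2-Ab1 and p = 0.5 for Cd74. Without the block the estimate of Cd74 was -0.017 when M1 replicate 3 was left out and -0.434 when M1 replicate 1 was, and that of H2-Ab1 ranged from -0.125 to -0.464 over the libraries left out. Under the block 2 of the 9 members were lower at that unadjusted p, against 3.24% of rows, and 0 were higher, against 4.84%.

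The members were also set in order of replicate number. They come from the libraries that gave the pairing and are not independent of each other, so their order is no separate evidence for it. In 7 of the 9 tested members the 3 libraries stood in the same order of replicate numbers in M1 and in M1 + PBM, against 33.1% of the rows tested, and H2-DMa and H2-DMb2 were the exceptions. Of the 9, H2-Ab1 and Cd74 were lower with PBM in all 3 pairs, against 10.1% of rows, and H2-DMa was higher in all 3, against 25.5%. H2-Oa, which was not tested, kept its order and was lower in all 3 pairs. For Ciita the pairs differed by 0.26, -0.01 and 0.40, less than the libraries of either group differed among themselves, and the standard error went from 0.57 to 0.12 with the block.

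**Figure D5:**
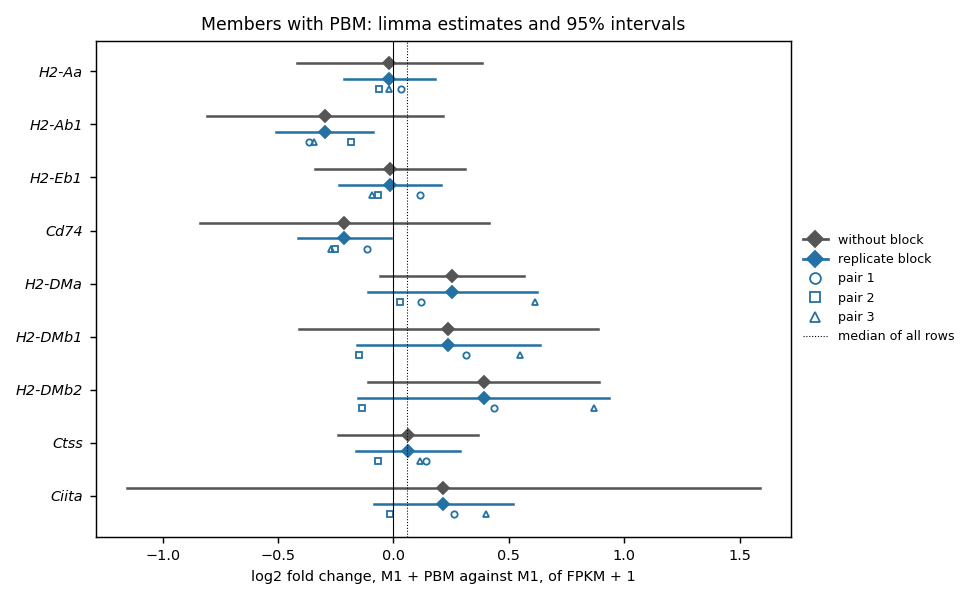
Log2 fold change of FPKM + 1 for M1 + PBM against M1 in the 9 tested members, as limma estimates with 95% intervals without the block (grey) and after blocking on the number (blue), with open symbols for the same-numbered pairs and a dotted line at the median of all rows. The blocked intervals of H2-Ab1 and Cd74 end below 0, and all intervals without the block span 0.

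Of the other pathway genes, 22 of the 26 found in the files were tested between M1 + PBM and M1. By limma 2 were higher (Ifngr1 and Nfya) and 1 was lower (Socs1) at an unadjusted p of at most 0.05, against 2.99% and 1.45% of rows, and 0 passed the adjusted threshold. Socs1, the feedback inhibitor of the IFN-γ signal, was at 16.3, 12.7 and 13.3 FPKM in M1 and 7.15, 8.78 and 7.40 in M1 + PBM (log2 fold change -0.78 ± 0.13, SE, unadjusted p = 0.000727, adjusted p = 0.809, limma). Ifngr1, a chain of the IFN-γ receptor, was at 8.73, 7.42 and 7.57 in M1 and 12.4, 10.8 and 13.9 in M1 + PBM (0.58 ± 0.12, unadjusted p = 0.00257, adjusted p = 0.90, limma). Nfya, the gene of a subunit of NF-Y, was at 7.27, 7.96 and 8.08 in M1 and 14.2, 8.73 and 15.6 in M1 + PBM (0.62 ± 0.21, unadjusted p = 0.0214, adjusted p = 0.90, limma). None of these 3 overlapped between the groups. The median log2 fold change over the 22 was 0.06, as over all rows.

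The mean centred log2 profile of H2-Aa, H2-Ab1, H2-Eb1 and Cd74 over the 9 libraries was 0.05, -0.90 and -0.96 in M0, 0.18, 0.56 and 0.37 in M1, and 0.10, 0.42 and 0.19 in M1 + PBM. Of the genes in it, H2-Aa followed it most closely, with a root mean square difference of 0.159, and H2-Ab1 least, with 0.432. Among the other members H2-DMa (0.341) and H2-DMb1 (0.348) came nearest, with 1.92% and 2.34% of 13622 candidate genes nearer, and Ciita was the farthest (0.646, with 41.8% nearer). Among the 5 nearest genes that were no members were Gm24484 (0.181), Aim2 (0.210), Inka1 (0.218) and Clic4 (0.225). Aim2, a sensor of cytosolic DNA, was at 4.88 to 6.34 FPKM in M0, 10.7 to 11.8 in M1 and 10.7 to 12.5 in M1 + PBM. Gm24484 was listed at 0 in 1 M0 library and did not exceed 1.39 FPKM.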

How the data were processed

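RNA-seq of 9 libraries was used, 3 each of M0, M1 and M1 + PBM, grouped and numbered by their labels. The authors deposited FPKM values in 2 tables of 55655 rows, 1 for M0 and 1 for the other 6 libraries. The methods name Cufflinks for the expression values. The submitters' processing notes name Bowtie 0.12.2 and the build mm9, so coordinates from the reference (GRCm38) were printed for promoters only. The labels describe strand-specific libraries, and whether counting used strand is not given in the sources used here. Symbols came from GENCODE release M21. No whole reads were recovered and no count test was run, since 23.8% to 25.5% of low values fell within 0.05 of a whole number of steps, where even spreading gives 10%.

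The contrast of M1 + PBM with M1 was fitted by limma 3.58.1 in R 4.3.3 (lmFit, eBayes with a trend) on log2(FPKM + 1), with Benjamini-Hochberg adjustment over all rows tested. The fold change is on that scale and understates changes of low genes. Intervals are 95%. The script was tested on simulated data. M0 entered no test. Python 3.11.15 and scipy 1.17.1 gave the exact permutation tests.

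Same-numbered libraries of M1 and M1 + PBM deviated together from their group means (r across genes 0.157, 0.469 and 0.462, against -0.491 to 0.033 for different numbers), so the numbers were taken as pairs. Centring on the mean of 3 libraries ties these correlations to each other, so the contrast with different numbers is partly built in. The members and lists were chosen with earlier results of these data known. The named genes were the members, the lists of other class II locus genes, promoter factors, IFN-γ signal, endosomal proteolysis and surface turnover, the 5 nearest profiles among genes with an FPKM of at least 1 in 3 libraries, and Nos2 and Cd86. Some of these genes are not reported here. Marker lists covered macrophages, dendritic cells, B cells, T cells, neutrophils and stromal cells. The summed neutrophil markers were 1.44 to 2.39 FPKM in M0, 8.94 to 28.1 in M1 and 6.44 to 15.1 in M1 + PBM, with Ly6g listed at 0 in all libraries. Most of each sum was S100a8, at 1.13 to 2.11, 6.90 to 27.2 and 4.94 to 14.5, while Mpo and Elane did not exceed 0.0177. Alternatives were another pseudocount, other filters, scalings and variance settings, the block, and leaving out each library.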

Additional observations from a re-analysis of the deposited data

How the results depend on the processing

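Over all rows, the adjusted threshold called 1 row under every alternative. The thresholds on unadjusted p and fold change called 32 rows, 75 with a pseudocount of 0.1, and 27 to 89 with 1 library left out (89 without M1 + PBM replicate 2, 69 without M1 replicate 2). The median of the tested members was 0.06 and ranged from -0.085 to 0.159 with 1 library left out, lowest without M1 + PBM replicate 2 and highest without M1 replicate 2. The count of members at an unadjusted p of 0.05 was 0, where 543 of 12238 rows passed. With the replicate block it was 2 (H2-Ab1 and Cd74, in the same-numbered pairs), where 988 rows passed. With 1 library left out it was 0 to 1. The 1 was H2-DMb2, at 0.60 without M1 replicate 2 (unadjusted p = 0.00979, adjusted p = 0.545, limma), where 1089 of 12238 rows passed. Of 115 recomputed member estimates 102 kept their sign and side of the threshold and 10 turned sign, none of them past the threshold. Ctss was -0.013 with median-of-ratios scaling. With 1 library left out, H2-Aa ranged from -0.136 to 0.124, H2-Eb1 from -0.125 to 0.081, H2-DMb1 from -0.035 (M1 replicate 3 left out) to 0.493, and Ciita from -0.293 (M1 replicate 3 left out) to 0.677. Cd74 ranged from -0.434 (M1 replicate 1 left out) to -0.017 (M1 replicate 3) and H2-Ab1 from -0.464 (M1 + PBM replicate 2) to -0.125 (M1 + PBM replicate 3), both under 0 throughout. The cause was not tested.

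The members' median difference from M0 was 0.30 to 0.75 for M1 and 0.41 to 0.85 for M1 + PBM with 1 library left out, and 0.85 for M1 + PBM with median-of-ratios scaling. Counts of members above M0, H2-Oa included, were 2 to 7 for M1 with 1 library left out, against 16.5% to 18.7% of rows. For M1 + PBM they were 3 to 9, against 17.1% to 19.2%. Both were highest without M0 replicate 1. H2-Oa is not among the rows behind these shares. The counts were 6 (28.9% of rows) and 8 (27.4%) with median-of-ratios scaling, and 5 for M1 + PBM with upper-quartile scaling (21.1% of rows). The low FPKM of H2-Oa, H2-DMb2 and Ciita limits what can be seen in them.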
